A study of Mus musculus with 6 samples.

Results

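The genes described here are the nuclear-encoded components of mitochondrial respiratory complexes II, III and IV and of ATP synthase, also called complex V. They were taken by name, as every gene whose symbol starts with Cox4 to Cox8, with Uqc or with Atp5, or is Sdha, Sdhb, Sdhc or Sdhd, which gave 48 of the 17459 genes in the count table. By their known products, 4 belong to complex II, 11 to complex III, 16 to complex IV and 16 to complex V. The remaining gene, Atp5sl (now called Dmac2), matches the name rule but encodes an assembly factor of complex I.

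Expression was measured by RNA sequencing in microglia, the resident macrophages of the brain, isolated from male C57BL/6J mice with a labelled age of 8 weeks. The knockout mice (cKO) were Mir137loxP/loxP;Tmem119-CreERT2, so that tamoxifen activates a Cre recombinase expressed from the microglial gene Tmem119, which deletes Mir137. The controls (cWT) were Mir137+/+;Tmem119-CreERT2, and therefore carried the same Cre and also received tamoxifen, over 7 days between 7 and 8 weeks of age. Each genotype had 3 libraries, and the description mentions 4 mice without tying them to libraries, so p-values measure only the spread between these libraries, which may be technical. The library totals were 16503817 to 17482042 estimated counts in cWT and 12068698 to 15212806 in cKO. Loss of Mir137 itself was not checked: its base mean is 0 in the authors' deposited table, and values by library were not analysed here. Of 18 microglial markers all 18 were tested, with 8 called higher in cKO, 8 lower and 2 not called, and their summed level was 52720 to 56067 CPM (counts scaled by library size and TMM factor) in cWT and 68901 to 79827 in cKO.

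The respiratory chain carries electrons from nutrients to oxygen across the inner mitochondrial membrane. Complex II oxidises succinate and feeds ubiquinone, complex III passes the electrons to cytochrome c, complex IV (cytochrome c oxidase) reduces oxygen, and ATP synthase makes ATP from the proton gradient. Each complex combines a small catalytic core with many short accessory subunits, and for complexes III, IV and V the nuclear subunits assemble with others made inside the mitochondrion. Several complex IV subunits exist as a widely expressed form and a form restricted to certain tissues such as muscle. The mitochondrially encoded subunits were not analysed here.

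All 48 genes were higher in cKO. This held at an adjusted p under 0.05 in edgeR's quasi-likelihood test, adjusted over all 13490 genes tested, of which 72.1% were called, 35.6% as higher and 36.5% as lower. Their log2 fold changes ran from 0.29 for Atp5sl to 5.12 for Cox8b, with a median of 1.85, beside a median of -0.02 over all genes tested. For 40 of the 48 the increase was at least 2-fold, which was the case for 19.0% of all genes. In each of the 48 the lowest cKO library lay above the highest cWT library, as in 36.7% of all genes, while the groups were apart in either direction in 74.6%. The smallest increases were those of the assembly factors Atp5sl and Uqcc1 and of Sdha, and the largest those of the restricted isoforms Cox8b and Cox7a1. The 7 catalytic and core subunits had a median of 1.13, and the 5 accessory subunits of complex III one of 2.39.

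Fold change went with transcript length across the whole data set, and these genes have short transcripts. The median length of their principal transcripts was 787 bases, against 2997 bases for the genes tested, and log2 fold change had a Spearman correlation of -0.72 with length over the 13399 tested genes whose length was known. The level within a library correlated with length at 0.180 to 0.186 in the cWT libraries and at -0.163 to -0.138 in the cKO libraries, over the same genes. A second fit therefore used offsets, a correction per library for transcript length and GC content, which brought the correlation of fold change with length to -0.08. By construction these offsets also remove any difference that short transcripts share. With them, 38 of the 48 genes were called higher, 3 lower and 7 not at all, beside 57.2% called among all genes (29.7% higher and 27.6% lower), and the median of the 48 fell from 1.85 to 0.47. The part that length plays in the results that follow was otherwise not tested. Lengths and offset values are given for many genes and groups, but not for the summed shares. For most lists of cell markers only the calls with the offsets are given.

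**Figure D1:**
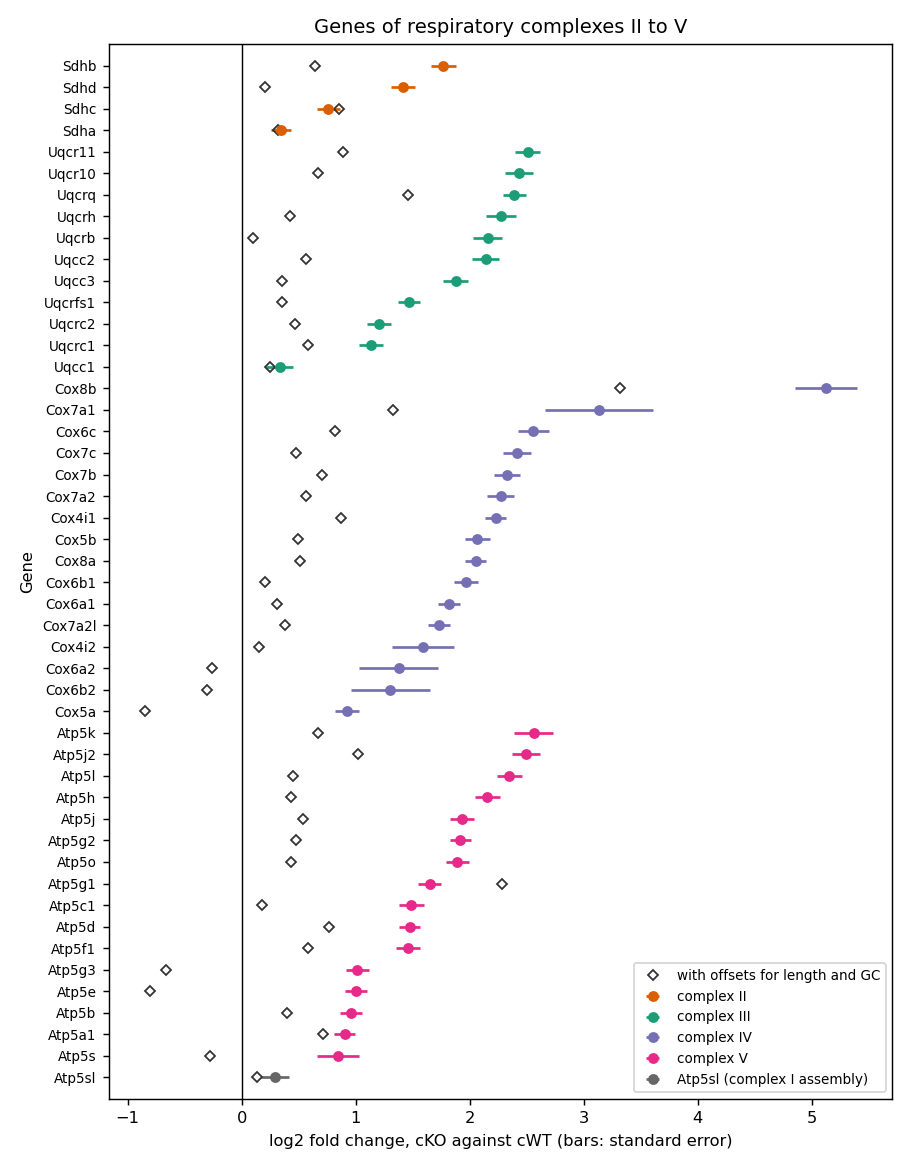
Log2 fold change of cKO against cWT (x axis) for each of the 48 genes (y axis), grouped by complex. Filled points with bars are the estimate and its standard error from 3 libraries per genotype, and open diamonds are the estimates with the length and GC offsets. All filled points lie above 0, between 0.29 and 5.12, while the open diamonds have a median of 0.47 and 6 of them lie below 0.

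In all, the genes took a larger part of the cKO libraries. Their summed share of all counts was 0.388%, 0.376% and 0.355% in the cWT libraries and 0.900%, 0.902% and 0.824% in the cKO libraries, a ratio of the means of 2.35. The groups did not overlap, and cKO replicate 3 was the lowest of its group. The share rose by a ratio of 1.53 for complex II, 2.56 for complex III, 3.23 for complex IV and 2.08 for complex V. Shares of reads count longer transcripts more, and in bulk RNA a change in the mix of cells cannot be told apart from a change in RNA per cell.

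**Figure D2:**
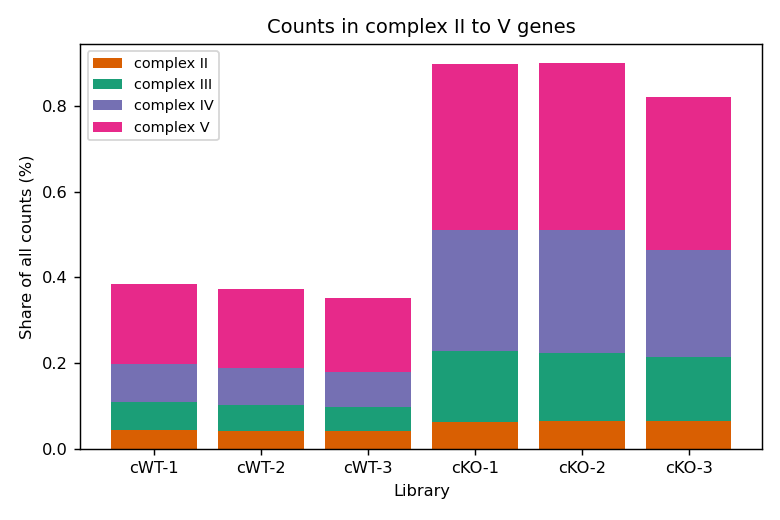
Share of all counts in percent (y axis) taken by the genes of complexes II, III, IV and V in each library (x axis), stacked. The 3 cWT libraries lie between 0.355% and 0.388% in sum and the 3 cKO libraries between 0.824% and 0.902%, with Atp5sl, included in these sums, too small to see and not drawn.

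Complex II also serves the citric acid cycle as succinate dehydrogenase. It had the lowest median log2 fold change of the 4 complexes, 1.09, and transcripts with a median of 2065.5 bases. Median lengths in complexes III, IV and V were 821, 652 and 896.5 bases. With the offsets the median log2 fold changes of complexes II, III, IV and V were close, at 0.48, 0.47, 0.49 and 0.46. Sdha encodes the flavoprotein that oxidises succinate. It lies at chr13:74322254-74350280 (GRCm38, as for all genes here) and stood at 168, 182 and 174 CPM in the cWT libraries and at 216, 224 and 226 CPM in the cKO libraries. The groups were close but did not overlap, with a change of 0.35 on the log2 scale (SE 0.09, edgeR adjusted p = 0.00191). With library size as the only scaling it was -0.05 and not called (adjusted p = 0.635). Sdhb, the iron-sulfur subunit that takes the electrons on from Sdha, went from 78.6, 67.0 and 62.4 CPM to 257, 229 and 223 CPM. Its log2 fold change of 1.77 (SE 0.11, adjusted p = 7.95e-11) was the largest of the complex. Sdha and Sdhb, which form the soluble catalytic part, thus moved by unequal amounts; their transcripts have 2900 and 1142 bases, and with the offsets they stood at 0.32 and 0.65. The membrane anchors that bind ubiquinone, Sdhc and Sdhd, rose by log2 fold changes of 0.76 and 1.42. With the offsets Sdhc, which has the longest principal transcript of the complex at 3171 bases, was at 0.85 and Sdhd at 0.20.

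In complex III the 5 accessory subunits rose the most, the core subunits less and the assembly factor Uqcc1 least. Uqcr11 encodes one of the smallest subunits, on a transcript of 445 bases (chr10:80402997-80406830). Its level was 30.2, 26.3 and 25.8 CPM in cWT and 170.2, 158 and 141 CPM in cKO, with a fitted change of 2.51 on the log2 scale (SE 0.11, edgeR adjusted p = 3.28e-12). Every cKO library was several times above every cWT library. The other accessory genes, Uqcr10, Uqcrq, Uqcrh and Uqcrb, had log2 fold changes from 2.16 to 2.43. Uqcrb was the only one of these not called with the offsets, at 0.10 (adjusted p = 0.281), while Uqcrq kept the highest value of the complex, 1.45. The annotation of Uqcrq holds transcripts from 405 to 1521 bases, so that its offset value depends on which of them is expressed.

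The core subunits of complex III had smaller increases than the accessory ones. Their principal transcripts were longer, except that Uqcrfs1, with 1363 bases, was shorter than the accessory gene Uqcrq, with 1521. Uqcrfs1 encodes the Rieske iron-sulfur protein, which hands electrons to cytochrome c1. It was at 58.4, 49.1 and 52.0 CPM in cWT and at 147, 149 and 145 CPM in cKO, a fitted change of 1.47 on the log2 scale (SE 0.10, edgeR adjusted p = 2.36e-10). The 3 cKO libraries lay within a few CPM of each other. Uqcrc2, a core protein, went from 132, 106 and 106 CPM to 279, 253 and 260.5 CPM (log2 fold change 1.20, SE 0.10), and its partner Uqcrc1 rose by 1.13. With the offsets Uqcrfs1, Uqcrc2 and Uqcrc1 were still higher, at 0.36, 0.47 and 0.58.

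Assembly factors of complex III were not alike. Uqcc2 and Uqcc3, which act in the synthesis and assembly of the mitochondrially made cytochrome b, rose by log2 fold changes of 2.14 and 1.88. Uqcc1, the partner of Uqcc2, was at 32.7, 26.8 and 33.7 CPM in cWT and at 41.2, 37.2 and 38.9 CPM in cKO. Its groups were separated by a few CPM, with a change of 0.33 on the log2 scale (SE 0.12, edgeR adjusted p = 0.0162). The call of Uqcc1 was lost without cWT replicate 2 (0.23, adjusted p = 0.133), with library size alone (-0.06) and with the offsets (0.25, adjusted p = 0.0536), but not with the offsets and the replicate number as a block together (0.25, adjusted p = 0.0343). Transcripts of Uqcc2 and Uqcc3 measure 500 and 821 bases, and that of Uqcc1 2633 bases.

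Among the 10 widely expressed subunits of complex IV, 9 rose by log2 fold changes from 1.82 to 2.56 and Cox5a by less. Cox4i1 encodes the subunit through which ATP regulates the enzyme and had the highest mean level per kilobase of complex IV, 187 CPM in cWT and 877 CPM in cKO. It stood at 141, 150.4 and 138 CPM in the cWT libraries and at 672, 672 and 669.7 CPM in the cKO libraries (chr8:120668222-120674207). The cKO libraries were nearly level, and the fitted log2 fold change was 2.23 (SE 0.10, edgeR adjusted p = 3.28e-12). Cox6c had the largest log2 fold change of the group, 2.56, from 57.7, 52.0 and 43.9 CPM to 339.8, 331 and 234 CPM, with cKO replicate 3 well below the others. Cox7b went from 35.7, 33.4 and 31.2 CPM to 191, 165 and 147 CPM (2.33), again lowest in cKO replicate 3. Cox7c, Cox7a2, Cox5b, Cox8a, Cox6b1 and Cox6a1 had log2 fold changes from 1.82 to 2.41. Cox7c was the only one of the 48 genes with fractional counts, the mark of reads divided between similar sequences.

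Cox5a, which with Cox5b binds the matrix side of the enzyme, was the exception among these subunits. Its level (chr9:57521274-57532426) was 26.9, 24.2 and 25.6 CPM in cWT and 47.0, 47.3 and 50.8 CPM in cKO. The groups did not overlap, but the log2 fold change of 0.92 (edgeR adjusted p = 3.83e-07, SE 0.11) was the smallest of complex IV, although its transcript has only 645 bases. All tested genes of 174 to 1211 bases, the shortest of 10 equal groups by length, had a median of 1.58. With the offsets Cox5a was called lower, at -0.85 (adjusted p = 1.84e-07), while the other 9 widely expressed subunits were called higher, at 0.20 to 0.87. Cox7a2l, a relative of Cox7a2 that links complexes III and IV in supercomplexes, rose by 1.73, and by 0.38 with the offsets.

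**Figure D3:**
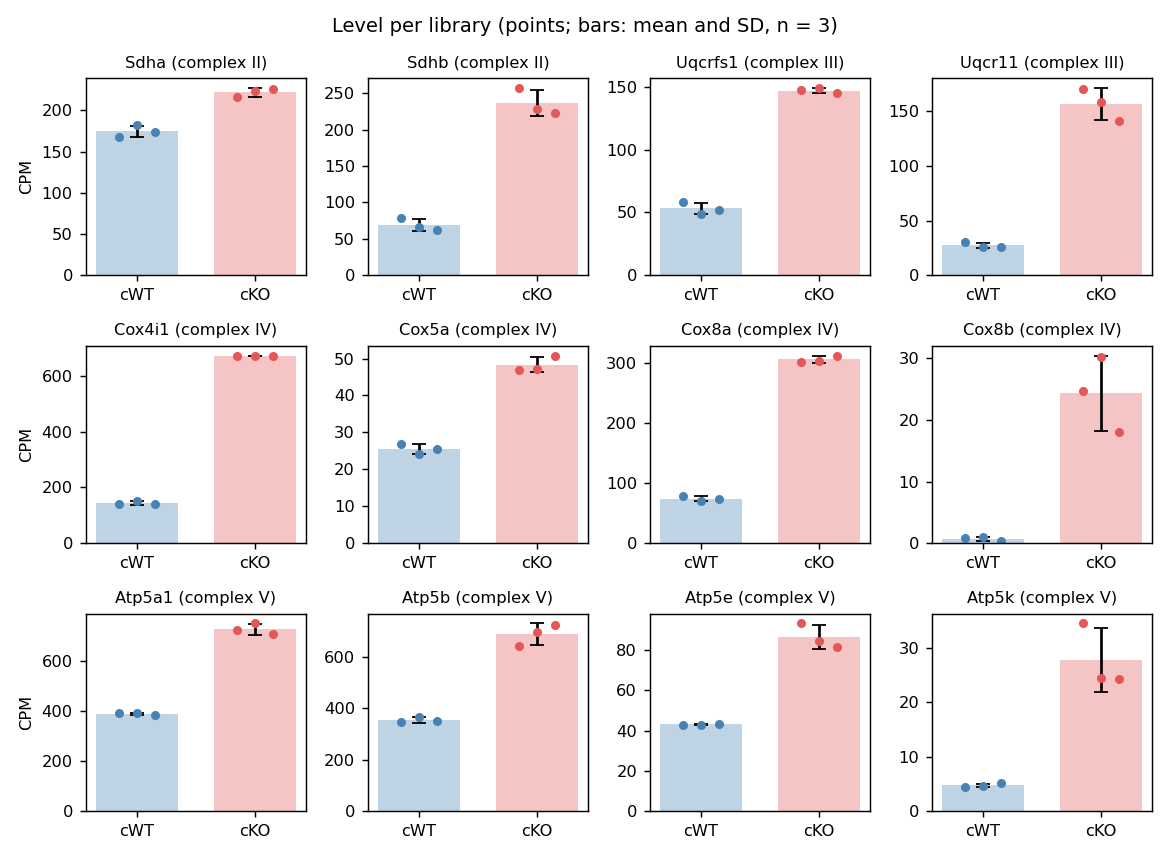
Level in CPM (y axis, each starting at 0) of 12 genes in cWT and cKO. Points are the 3 libraries of a genotype and bars their mean and SD, and the groups do not overlap in any of the 12 panels, with Sdha the closest and Cox8b the farthest apart.

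Restricted isoforms of complex IV were measured at low levels, and Cox8b stood apart from them in cKO. Cox8b, the form of subunit VIII known from muscle and brown fat (chr7:140898945-140900446), had 15, 18 and 7 counts in the cWT libraries and 253, 342 and 238 in the cKO libraries. That corresponds to 0.798, 0.921 and 0.354 CPM against 24.6, 30.3 and 18.1 CPM. The log2 fold change of 5.12 (edgeR adjusted p = 2.28e-11, SE 0.27) was the largest of the 48 genes, and it was 3.32 with the offsets. Cox8a, the widely expressed form, went from 78.0, 70.3 and 72.7 CPM to 301, 304 and 312 CPM, a fitted change of 2.05 on the log2 scale (SE 0.09, edgeR adjusted p = 5.18e-12). Cox8b therefore took 1.01%, 1.29% and 0.485% of the counts of the pair in cWT and 7.57%, 9.07% and 5.48% in cKO.

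Cox7a1, the heart and muscle form of subunit VIIa, had 3, 9 and 4 counts in cWT and 25, 29 and 32 in cKO. Its log2 fold change was 3.13 (SE 0.47, edgeR adjusted p = 1e-05), while Cox7a2, the common form, went from 48.0, 45.9 and 38.2 CPM to 233, 224 and 181 CPM (2.27). The other restricted forms had smaller log2 fold changes than their common partners. Cox4i2, known from lung and from the mural cells of vessels, was at 1.65, 2.10 and 1.67 CPM in cWT and at 4.48, 4.87 and 6.91 CPM in cKO, a log2 fold change of 1.59. Cox6a2, known from heart and muscle, went from 1.92, 1.02 and 1.06 CPM to 3.21, 4.25 and 2.96 CPM, a rise of 1.38, where Cox6a1 went from 80.8, 73.1 and 76.2 CPM to 279.8, 274 and 258 CPM, a rise of 1.82. Both pairs of groups were apart, but the Cox6a2 values differ by little more than 1 CPM at their nearest. Cox6b2, known from testis, went from 0.851, 1.74 and 1.57 CPM to 2.73, 3.37 and 4.18 CPM (1.30), and Cox6b1 from 62.3, 56.7 and 56.3 CPM to 261, 223 and 203 CPM (1.97). These 3 restricted forms lay below 7 CPM in every library, were not called with the offsets (0.16, -0.26 and -0.31), and the differences from their partners were tested only as shares of counts, below.

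Lists of markers of other cells differed in how they moved. Of 12 markers of choroid plexus and ependyma, the secretory and ciliated linings of the ventricles, 12 were called higher in cKO, and 11 with the offsets. Their summed level was 2207 to 2502 CPM in cWT and 10551 to 14230 CPM in cKO. Most of that sum was Ttr, which encodes transthyretin, at 2246, 2328 and 2073 CPM in cWT and 12228, 13868 and 10241 CPM in cKO. Among the cKO libraries Ttr and Cox8b were each highest in replicate 2 and lowest in replicate 3. The ciliary genes Tmem212 and Ccdc153, with the largest log2 fold changes of the list (3.80 and 3.74), were instead highest in replicate 3 and lowest in replicate 1. Of 10 striated muscle markers, 9 were in the table and 2 were tested, Acta1 was at 0 in every library, and the summed level was 5.43 to 6.12 CPM in cWT and 15.7 to 23.7 CPM in cKO, mostly from Tnni2. Mural cell markers were split, with 5 of 12 higher and 5 lower, and with 2 higher and 4 lower with the offsets. Their summed levels were 456 to 589 CPM in cWT and 449 to 522 CPM in cKO. The part of these cells in the levels of Cox8b, Cox7a1 and Cox4i2 was not tested.

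Other lists of cell markers give the background for the remaining genes. Neutrophil and monocyte markers were at 4197 to 4914 CPM in sum in cWT and 11951 to 16828 CPM in cKO (7 of 9 higher, 1 lower), a count that turned to 1 higher and 4 lower with the offsets. Endothelial markers were at 1625 to 1923 and 2280 to 2714 CPM (3 of 9 higher, 5 lower, and 2 higher and 4 lower with the offsets). Meningeal fibroblast markers summed to 144 to 192 CPM in cWT and 421 to 655 CPM in cKO (6 of 9 higher, 2 lower, and 3 and 1 with the offsets). Mgp and Ptgds had the highest cKO means of that list, 229 and 207 CPM, against 61.0 and 26.2 CPM in cWT. Col1a1 and Col1a2 were lower, at -2.67 and -1.23. Oligodendrocyte markers summed to 344 to 356 and 434 to 629 CPM (7 of 9 higher, 1 lower, with and without the offsets). Astrocyte markers summed to 394 to 409 and 422 to 654 CPM (4 of 9 higher, none lower, and 7 higher with the offsets). Border macrophage markers summed to 787 to 990 CPM in cWT and 749 to 926 CPM in cKO (4 of 7 higher, 1 lower, and 3 and 1 with the offsets). Erythroid markers summed to 113 to 163 and 102 to 212 CPM (none of 5 higher, 1 lower, and 3 lower with the offsets). Neuronal markers summed to 15.1 to 18.8 and 21.6 to 28.9 CPM (2 of 4 tested higher, none lower, and 1 higher with the offsets). The part of these cells in the levels of the widely expressed subunits was not tested.

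In ATP synthase the 3 small membrane subunits rose most, and Atp5s and the catalytic subunits of the head least. Atp5k, Atp5j2 and Atp5l encode subunits e, f and g of the membrane part, of which e and g help to bind 2 enzymes into a dimer. Atp5k had the largest log2 fold change of the complex and went from 4.36, 4.61 and 5.06 CPM to 34.5, 24.4 and 24.3 CPM (2.56, SE 0.17, edgeR adjusted p = 2.37e-10). Its cKO replicate 1 was the highest. Atp5j2 and Atp5l rose by 2.49 and 2.35, and with the offsets the 3 genes were at 0.67, 1.02 and 0.45. The stalk subunits that hold the head in place, Atp5h, Atp5j, Atp5o and Atp5f1, rose by 1.46 to 2.16, and by 0.43 to 0.58 with the offsets.

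The head of the enzyme is built from alternating alpha and beta subunits, encoded by Atp5a1 and Atp5b, around a rotating shaft. Atp5a1 (chr18:77773729-77782869) was at 389, 392 and 383 CPM in cWT and at 724, 749 and 706 CPM in cKO. Atp5b, whose product holds the catalytic sites, was at 344, 367 and 349 CPM in cWT and at 643, 696 and 725 CPM in cKO. Both had similar estimates, with log2 fold changes of 0.90 (SE 0.09, edgeR adjusted p = 9.08e-08) and 0.96 (SE 0.10, edgeR adjusted p = 6.12e-08). Per kilobase of transcript their levels were 157 and 184 CPM in cWT and 294 and 359 CPM in cKO. With the offsets they were farther apart, Atp5a1 at 0.71 and Atp5b at 0.40. The shaft genes Atp5c1 (gamma) and Atp5d (delta) rose by 1.49 and 1.47 (0.18 and 0.76 with the offsets), and Atp5e (epsilon) by less.

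Atp5e, picked out after its value was seen, has a transcript of 421 bases and a smaller increase than other short genes of the enzyme. Its level was 42.8, 42.9 and 43.5 CPM in cWT and 93.4, 84.4 and 81.8 CPM in cKO, a fitted change of 1.01 on the log2 scale (SE 0.10, edgeR adjusted p = 3.15e-08). The cWT libraries were within 1 CPM of each other, and the groups were far apart. With the offsets Atp5e was called lower, at -0.81 (adjusted p = 7.93e-09). Atp5s, which encodes coupling factor B, was at 6.28, 6.35 and 6.07 CPM in cWT and at 13.5, 10.8 and 9.34 CPM in cKO (0.84, SE 0.18, edgeR adjusted p = 0.000476), the smallest increase of complex V, and at -0.27 with no call with the offsets. Atp5sl, the assembly factor of complex I, had 18.9, 20.4 and 19.0 CPM in cWT and 21.1, 24.6 and 25.6 CPM in cKO (0.29, SE 0.12, edgeR adjusted p = 0.0398). Its call was lost without any one of cWT replicate 1, 2 or 3 or cKO replicate 2 or 3 (adjusted p from 0.0696 to 0.123), with the offsets (0.14) and with library size alone (-0.10). In the authors' deposited table it was the only one of the 48 genes without an adjusted p under 0.05 (0.0714).

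The c-ring, the rotor in the membrane, is made of copies of subunit c, and Atp5g1, Atp5g2 and Atp5g3 encode the same mature protein behind different import sequences. Atp5g2 went from 79.4, 77.1 and 75.5 CPM to 319, 273 and 286 CPM (1.92, SE 0.10, edgeR adjusted p = 1.28e-11). Atp5g1 went from 30.3, 32.1 and 27.2 CPM to 94.8, 89.9 and 96.7 CPM (1.65, SE 0.10), and Atp5g3 from 53.4, 59.1 and 48.7 CPM to 114, 101 and 111 CPM (1.02, SE 0.10). The 3 genes kept their order in every library, and the distance between Atp5g2 (chr15:102662864-102672352) and Atp5g3 (chr2:73908447-73911326) widened in cKO. Atp5g2 held 48.7%, 45.8% and 49.9% of the counts of the 3 genes in cWT and 60.5%, 58.9% and 57.8% in cKO. Atp5g3 held 32.7%, 35.1% and 32.2% in cWT and 21.5%, 21.7% and 22.6% in cKO, and Atp5g1 18.5% ± 0.569 and 19.0% ± 0.871 (SD, n = 3 each).

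These shares within a family do not depend on how libraries are scaled. For 8 isoforms the shares were compared with a two-sided exact permutation test over the 6 libraries, whose smallest possible p with 3 against 3 is 0.1. The groups did not overlap for Cox8b, Cox7a1, Atp5g2 (higher in cKO), Cox4i2 and Atp5g3 (lower), each with an exact p of 0.1 and 0.16 after Benjamini-Hochberg adjustment. For Cox7a1 they nearly met, at 0.331%, 0.994% and 0.526% in cWT and 1.03%, 1.13% and 1.33% in cKO. Its cWT shares rest on 3, 9 and 4 counts. The mean share changed by 6.44 percentage points for Cox8b, 0.55 for Cox7a1, 10.9 for Atp5g2, -0.44 for Cox4i2 and -11.4 for Atp5g3. The groups overlapped for Cox6a2, Cox6b2 and Atp5g1 (exact p of 0.3, 0.3 and 0.5). Atp5g2 and Atp5g3 have principal transcripts of 731 and 723 bases, but shortest annotated coding transcripts of 441 and 714 bases. Per kilobase of these shortest transcripts their mean shares changed by 9.78 and -9.35 percentage points, and the groups stayed apart. The part of length in the shares of these genes was not otherwise tested. Their values with the offsets were 0.48 and -0.66, the latter called lower (edgeR adjusted p = 6.51e-07).

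**Figure D4:**
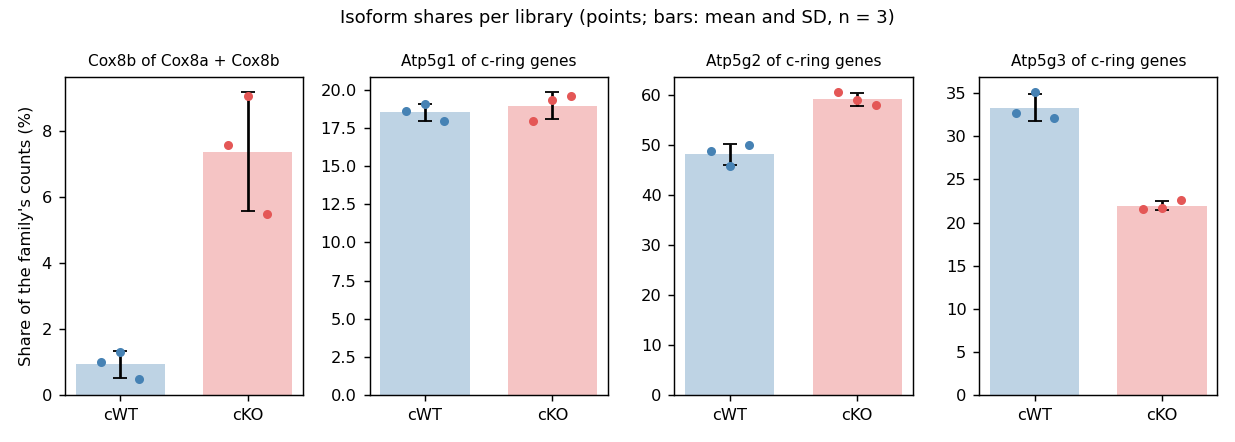
Share in percent (y axis, from 0) of the counts of its family taken by Cox8b (of Cox8a and Cox8b) and by Atp5g1, Atp5g2 and Atp5g3 (of the 3 c-ring genes) in cWT and cKO. Points are libraries and bars the mean and SD of 3, and the groups are apart for Cox8b, Atp5g2 and Atp5g3 and overlap for Atp5g1.

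Across the 48 genes the Spearman correlation of log2 fold change with transcript length was -0.65, a description over genes that share the same 6 libraries. The 29 genes with transcripts under 1000 bases had a median of 2.23, 2.08 and 1.997 in the cKO libraries on the log2 scale, relative to the cWT mean, and the 19 longer genes 1.36, 1.39 and 1.33. The cKO libraries thus differed among themselves more in the short genes than in the long ones, with cKO replicate 3 lowest in both. Of the 33 genes in the shortest of the 10 length groups, 27 lay above the median of all genes of that group, and their own median was 2.07 against 1.58. In that group 86.7% of all genes were called higher, beside all 33 of these, so most genes of this length were called in the same direction. Over all length groups, 41 of the 48 lay above the median of their group. The 7 others were Atp5c1, Atp5e, Atp5g3, Atp5s, Cox5a, Cox6a2 and Cox6b2. Atp5g1 was the farthest above its group apart from Cox8b, but its principal transcript of 4715 bases is much longer than its shortest of 596, and with offsets from the shortest transcripts it stood at 1.51 in place of 2.28. Those offsets called 46 of the 48 higher and none lower, with a median of 1.65, beside 37.0% higher and 34.3% lower among all genes; Sdha and Atp5sl were not called.

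**Figure D5:**
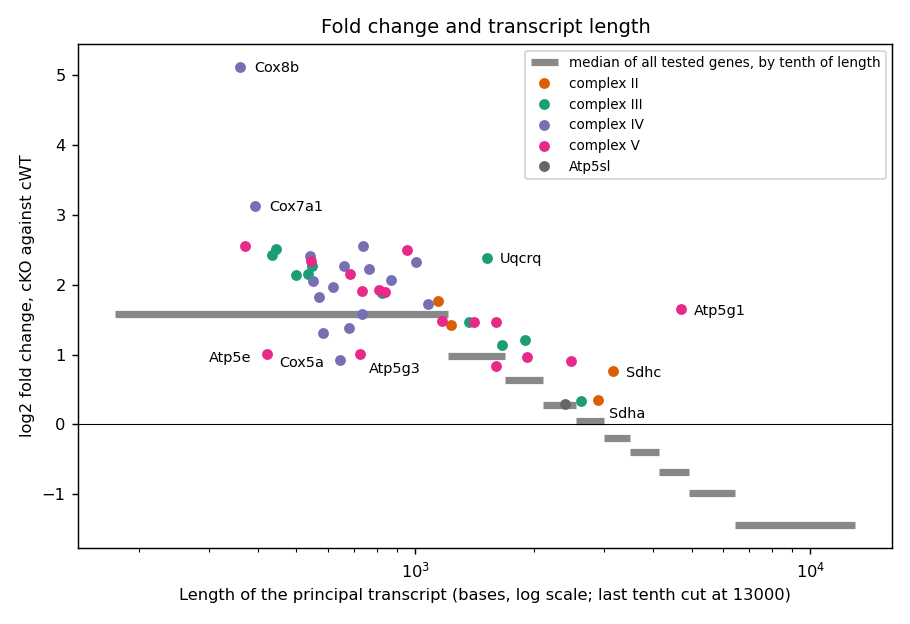
Log2 fold change of cKO against cWT (y axis) by length of the principal transcript in bases (x axis, log scale). Points are the 48 genes coloured by complex, and grey bars are the medians of all tested genes in 10 equal groups by length, falling from 1.58 to -1.44. Most points lie above the bars, and Atp5e, Cox5a and Atp5g3 lie below them.

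The surrounding pathway moved with these genes in part. Of the 22 tested assembly genes of complex IV, 15 were higher and 3 lower, with a median of 1.54 and a median length of 1421 bases. Pet100, a small assembly factor, went from 6.28, 5.12 and 5.11 CPM to 41.8, 30.0 and 29.6 CPM (log2 fold change 2.62, edgeR adjusted p = 1.21e-10), and Cox15, which makes heme a, from 25.5, 26.4 and 27.1 CPM to 16.0, 12.8 and 15.3 CPM (-0.84, edgeR adjusted p = 9.72e-06). With the offsets 12 assembly genes were higher and 3 lower, and Pet100 and Cox15 stood at 1.38 and -0.17. All 4 assembly factors of complex II were higher, with Sdhaf4 at 2.05, as were the 4 tested genes of ATP synthase assembly and control. With the offsets 3 of 4 and 2 of 4 were called higher, and Sdhaf4, at 0.24, was not (edgeR adjusted p = 0.0839). Atpif1, the inhibitor that stops ATP synthase from running backwards, rose by 2.13 (0.35 with the offsets). Of 3 further complex III assembly genes only the chaperone Bcs1l rose, by 0.84, and it was not called with the offsets (0.26). Cytochrome c (Cycs), the cytochrome c1 of complex III (Cyc1) and the complex IV subunit Ndufa4 rose by 1.64, 1.05 and 2.19, and by 1.51, 0.31 and 0.26 with the offsets.

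Enzymes of the citric acid cycle rose less uniformly. Of 13 genes 9 were higher and 2 lower (median 0.83, median length 2544 bases), from Idh3g at 1.46 to Ogdh, the core of the oxoglutarate dehydrogenase complex, at -1.19. Ogdh went from 105, 122 and 119 CPM to 44.6, 52.9 and 53.7 CPM and was still lower with the offsets, at -0.64. Of 13 genes used as a measure of mitochondrial content, such as porins and import receptors, 12 were higher and none lower (median 0.83, median length 1799 bases). The ADP/ATP carrier gene Slc25a4 rose most, by 1.53, and 6 of the 13 were higher with the offsets.

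Regulators of respiratory gene expression, among them coactivators and factors that act inside the mitochondrion, were more often lower than higher. Of 14 tested, 8 were lower and 4 higher (median -0.32), and the median length of their transcripts was 3961 bases. With the offsets 5 were higher and 6 lower. Ppargc1b, a coactivator of mitochondrial biogenesis, went from 2.61, 2.46 and 2.07 CPM to 0.487, 0.354 and 0.607 CPM (-2.27, edgeR adjusted p = 9.45e-05), and was lower with the offsets too, at -1.70. Tfb1m, a methyltransferase of the mitochondrial ribosome, had the largest increase, 1.27, but was not called with the offsets (0.13, edgeR adjusted p = 0.534). Tfam, which packages and transcribes mitochondrial DNA, rose by 0.92 and by 1.31 with the offsets. Nrf1 was not called, at -0.20 (edgeR adjusted p = 0.114), and was called lower with the offsets, at -0.77. Yy1 was lower, at -0.36, and turned to 0.73 with the offsets.

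The microRNA removed in these mice is shown with its seed, bases 2 to 8 from the 5′ end, in capitals, because a match to the seed in a 3′ untranslated region is the usual mark of a direct target. The sequence is from RefSeq (GRCm38.p6, chr3:118433901-118433923, plus strand).
mmu-miR-137-3p: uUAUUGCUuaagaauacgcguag
The matching letters, AGCAATA, occurred in the longest annotated 3′ untranslated region of 2 of the 48 genes (4.17%), against 9.84% of the 16290 genes of the table with such a region. The regions of the 48 are short, with a median of 222.5 bases against 1091. The 2 genes, Atp5g1 and Cox6a2, are shown with the match in capitals, from GENCODE transcripts of GRCm38, both on the minus strand, at chr11:96070554-96070583, chr11:96069229-96069258 and chr7:128205445-128205474.
Atp5g1 match 1: tgtcaccaagggAGCAATAgattaactggt
Atp5g1 match 2: gtgtctgaaaacAGCAATAgtgtgctcatg
Cox6a2 match: aaaatttatacaAGCAATAcattgaatatt
Both Atp5g1 matches lie in the distal part of a region of 4255 bases, 2536 and 3861 bases from its start, which shorter annotated transcripts lack. Atp5g1 and Cox6a2 rose by log2 fold changes of 1.65 and 1.38, neither at the upper nor at the lower end of the 48.

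Promoters, from 250 bases before to 50 after the annotated start, were found in RefSeq (GRCm38.p6) for 39 of the 48 genes. The entries not matched were Atp5a1, Cox4i1, Cox4i2, Cox6a2, Cox6c, Sdhc, Uqcrb, Uqcrc2 and Uqcrq. The NRF1 core, GCGC and again GCGC with 2 bases of any kind between, is bound by a factor known to act on respiratory genes and occurred in 11 of the 39 (28.2%) and in 12.3% of the promoters of 13704 genes in the table. The letters CCGGAAG, an ETS core such as the factor GABPA binds, occurred in 12 (30.8%) and in 16.2% of all. The YY1 motif AAGATGGCG occurred in 3 (7.69%) and in 2.77% of all. Each motif was searched on both strands, and overlapping matches were kept. The GC content of the promoters had a median of 56.3% for the 39 genes and 59.3% over all. Genes with the NRF1 letters had a median log2 fold change of 1.82 and those without 1.90, and the medians were 2.01 and 1.65 with and without the ETS letters.

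The genes with both NRF1 and ETS letters were Atp5h, Atp5k, Cox6a1 and Sdhd. Promoters of Cox6a1 and Atp5k are printed as examples, with all matches in capitals, beside that of Cox8b, the gene with the largest increase, which holds none of the 3 motifs. They lie at chr5:115348909-115349208, chr5:108434350-108434649 and chr7:140900397-140900696, all on the minus strand.
Cox6a1: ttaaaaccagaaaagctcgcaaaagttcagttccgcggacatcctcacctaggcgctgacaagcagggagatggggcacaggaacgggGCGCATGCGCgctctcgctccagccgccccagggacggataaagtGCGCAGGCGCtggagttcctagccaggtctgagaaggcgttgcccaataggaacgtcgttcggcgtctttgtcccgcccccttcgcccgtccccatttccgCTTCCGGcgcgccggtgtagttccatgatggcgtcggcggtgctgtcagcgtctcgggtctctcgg
Atp5k: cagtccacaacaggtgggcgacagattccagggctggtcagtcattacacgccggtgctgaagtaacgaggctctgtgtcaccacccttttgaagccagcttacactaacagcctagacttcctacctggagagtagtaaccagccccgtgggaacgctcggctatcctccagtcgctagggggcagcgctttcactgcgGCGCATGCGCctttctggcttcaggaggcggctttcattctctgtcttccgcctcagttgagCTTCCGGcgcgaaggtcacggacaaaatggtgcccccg
Cox8b: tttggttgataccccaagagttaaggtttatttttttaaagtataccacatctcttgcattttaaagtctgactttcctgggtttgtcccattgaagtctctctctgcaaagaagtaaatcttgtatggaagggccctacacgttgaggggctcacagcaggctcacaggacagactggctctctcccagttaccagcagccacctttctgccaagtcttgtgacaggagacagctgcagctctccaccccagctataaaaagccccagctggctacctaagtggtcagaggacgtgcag
In the Cox6a1 promoter the NRF1 letters begin at positions -162 and -117 from the start and the ETS letters, on the opposite strand, at -16. In the Atp5k promoter they begin at -50 and 13. These genes rose by log2 fold changes of 1.82 and 2.56, and by 0.31 and 0.67 with the offsets.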

How the data were processed

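Estimated counts per gene symbol and library, unscaled, were deposited by the authors. In each column 5.50% to 5.85% of values were fractional, and counts were rounded. Per the submitters' processing notes the tools were STAR 2.7.9a, RSEM and DESeq2 and the builds GRCm38 and mm10, without roles; the annotation and strand setting were not given in the sources used here. A second deposited table, the authors' own comparison, holds a base mean (a scaled signal), a log2 fold change and its error, a Wald score, and p-values with adjusted p-values, per the file headers.

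Genes were tested with edgeR 4.0.16 in R 4.3.3 (quasi-likelihood, robust, TMM scaling, filterByExpr with a minimum count of 10, genotype as the only term, two-sided), which left 13490 genes, with Benjamini-Hochberg adjustment of p over all of them. All 48 genes passed the filter. On simulated data with 200 of 13490 genes changed 2-fold, 97.0% were recovered and 4.43% of the calls were false. The simulation held far fewer changed genes than were called here and no trend with length. Its rates therefore may not hold for these data. CPM values carry the TMM factors. Lengths came from GENCODE for GRCm38, the build of the processing notes: 17273 of 17459 symbols matched, the principal transcript was used, and the offsets were natural splines with 5 degrees of freedom in length and GC content. Replicates differed beyond counting noise (chi-square per degree of freedom from 3.76 to 18.2), so none was a duplicate.

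Genes and lists were chosen with earlier results of these data known. Values per library are given, in each complex, for the genes with the highest level and the largest and smallest change, for catalytic subunits, and for isoform families. From each pathway list the largest change in each direction is named. Alternatives were DESeq2 1.42.0, limma-voom (limma 3.58.1), other scalings and filters, the replicate block, offsets and leaving out each library. One, offsets from the shortest transcripts, was added after the data were seen.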

Additional observations from a re-analysis of the deposited data

How the results depend on the processing

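All 48 genes were also called higher with DESeq2, limma-voom, median-ratio (RLE) scaling and TMM factors computed without respiratory and ribosomal genes. In that order, these called 4794, 4824, 4882 and 4910 of all 13490 genes higher. With library size alone 45 were called, the median of the 48 was 1.45, and Sdha, Uqcc1 and Atp5sl turned to -0.048, -0.061 and -0.099 without a call. That scaling moved the median of all genes by -0.39, and 33.1% of all calls were then increases (3331 against 6742), compared with 49.4% (4803 against 4926). With at least 5 CPM in 3 libraries 44 were tested and called, beside 8537 of all 10726 genes then tested. With no filter 47 were called, beside 9964 of all 16975 genes. Requiring a 2-fold change left 40 of the 48 and 5214 of all 9729 calls. Leaving out each library gave 46 to 48 calls and a median from 1.79 to 1.89, beside 9116 to 9717 calls among all genes.

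The offsets for length and GC content moved the median to 0.47, with 3 genes called lower. Values of Cox5a, Atp5g3 and Atp5e were -0.85, -0.66 and -0.81, and those of Atp5s, Cox6b2 and Cox6a2, without a call, -0.27, -0.31 and -0.26. With the replicate block and the offsets together the median was 0.47, 3 genes were lower, and these 6 stood at -0.86, -0.66, -0.81, -0.27, -0.29 and -0.24. Offsets from the shortest transcripts, a length that fold change follows only weakly (-0.27 in the 48 genes, -0.23 over all), gave a median of 1.65, with Atp5sl at -0.12. By construction the offsets for length and GC content remove any difference that short transcripts share. The causes of these shifts were not tested. The share of counts in cKO over cWT was 2.63 without ribosomal protein genes and Cst3 in the total, and 2.29 to 2.42 without each library. Per kilobase of the shortest transcript the share of Atp5g1 in the c-ring changed by -0.43 percentage points in place of 0.45. The share changes of the other isoforms compared kept their sign.

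With the replicate number as a block 48 genes were called (9911 of all genes, median 1.85). Beside the offsets the block changed 1 call, that of Uqcc1, so that 39 were higher in place of 38. The labels do not say that a number marks a shared animal or day. Deviations of same-numbered libraries correlated at 0.099, 0.034 and 0.088, each library best with its own number, which is only a hint.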

Other observations

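Among genes outside the respiratory chain and the pathway lists, those whose level followed the mean of the 48 genes most closely over the 6 libraries were Lamtor2, part of the lysosomal Ragulator complex, Ssu72, a phosphatase of RNA polymerase II, and Nme2, a nucleoside diphosphate kinase. Their Pearson correlations were 0.9997, 0.9996 and 0.9996, a description with no test, and their log2 fold changes were 1.88, 1.56 and 2.25. With 2 genotypes of 3 libraries such a correlation mostly restates the difference between genotypes, and 1019 tested genes had one above 0.99.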
